A study of Homo sapiens with 24 samples.

Results

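A list of 39 genes of the amino acid arm of the integrated stress response was followed in 3D aggregates of LUHMES cells that had been exposed to rotenone. The list holds targets of the transcription factor ATF4, amino acid transporters and aminoacyl-tRNA synthetases. Membership was set by gene name and by the RefSeq accession of each array probe, and no measured value entered the rule. The genes themselves were chosen with earlier results of these data known, so that the counts below are not independent of that choice. All 39 of the 39 genes had a probe, 51 probes in total, out of 21743 genes with a named probe on the array. All 39 also passed the filter on dim signals, which left 21239 genes to test. By role the list holds 8 transcription factors and regulators, 6 stress effectors with secreted or membrane targets, 9 amino acid transporters, 5 enzymes of amino acid synthesis, and 10 tRNA synthetases together with the tRNA exporter XPOT (11 genes).

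LUHMES is a conditionally immortalized human mesencephalic line that becomes postmitotic dopaminergic neurons once tetracycline silences its v-myc transgene. Rotenone blocks complex I of the mitochondrial respiratory chain. On day 7 of differentiation the aggregates received 50 nM rotenone for 12 h, 50 nM for 24 h or 100 nM for 24 h, or DMSO in the amount that the 100 nM dose carried. RNA was taken at the end of exposure, here called day 8, or following wash-out and a recovery of 7 days, called day 15. This gave 8 groups of 3 samples and 24 single-color arrays on 3 slides. All samples came from 1 line and each from a pool of aggregates, and nothing in the labels says that the 3 samples of a group were separate cultures, so that the p-values measure only the spread between these samples. A single DMSO group per day served both exposure times, and its exposure time is not given in the labels. Any difference in exposure time between DMSO and a rotenone group, as for 12 h, cannot be told apart from an effect of rotenone. The 3 day 8 comparisons with DMSO share its 3 arrays.

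Replicates 1, 2 and 3 of every group lay on slides 1, 2 and 3, and slide 1 was a repeated slide for which the labels ask for batch correction. A group took one fixed place on the slides, and an effect of that place cannot be told apart from an effect of the group. Between 50.9% and 82.4% of the spots of an array were well above background, with the highest shares on slide 1. Replicate 3 of the day 15 group after 100 nM varied most around the fit, with a residual SD of 0.45 (log2) where the other arrays had 0.20 to 0.31. The scan name of day 15 DMSO replicate 1 reads as a 12 h sample and does not name DMSO, and the counts, medians and calls that rest on it are given with and without it. Of 12 markers of LUHMES neurons, 11 were well above background on all 24 arrays, the exception being the vesicular monoamine transporter SLC18A2. The glial marker GFAP was well above background on 1 of the 24 arrays, while the oligodendrocyte markers MBP and MOG were so on all 24.

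In the integrated stress response, kinases that sense different kinds of stress phosphorylate the initiation factor eIF2. Bulk translation then slows while the ATF4 mRNA is translated better, and ATF4, often as a dimer with C/EBP proteins, turns on genes for amino acid uptake, amino acid synthesis and tRNA charging. Mitochondrial faults reach this relay through OMA1, DELE1 and the kinase HRI (EIF2AK1). ATF4 is controlled mainly at translation, which RNA levels do not show. The RNA of ATF4 itself had a day 8 mean of 15.51 in DMSO and of 15.30, 15.28 and 15.28 after 50 nM for 12 h, 50 nM for 24 h and 100 nM, in normalized log2 signal. Its log2 fold change with 100 nM was -0.23 (SE 0.09, limma adjusted p 0.138).

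ATF4 and its C/EBP partners bind a composite element, the C/EBP-ATF site, whose core is TGATGCAA or, on the opposite strand, TTGCATCA. Promoter windows from 250 bases before to 50 bases after the transcription start were taken from RefSeq (GRCh38.p14) and matched 34 of the 39 genes, with 56 windows. The genes SLC7A11, PYCR1, YARS1, NUPR1 and SLC7A3 had no entry. The exact element stood in 10 of the 56 windows (17.9%), in 1 window each of AARS1, CARS1, CEBPG, CHAC1, IARS1, JDP2, MARS1, NARS1, SLC1A4 and SLC1A5. Among all 35116 promoters it stood in 304 (0.866%). A looser form with any base at the third position from the end, TGATGNAA or TTNCATCA, was in 15 of the 56 windows (26.8%) and in 1270 of all promoters (3.62%). It includes the exact form and added ASNS, ATF3, GARS1, SLC3A2 and SLC7A1. The list was drawn up in part from targets of ATF4, so that a higher share than among all promoters is not independent of that choice. A match of letters is a description of the window and does not show binding. Printed here are windows of the 4 genes with an exact element and the smallest p on day 8 with 100 nM, 88 to 124 bases each, since results on these genes follow. Capitals mark the element, and each run is written 5′ to 3′ on the strand of the gene. In CHAC1 (chr15:40953221-40953344, plus strand) the element begins at base -209 from the transcription start, in SLC1A4 (chr2:64989317-64989404, plus strand) at base -7, in CARS1 (chr11:3057413-3057500, minus strand) at base -2, and in JDP2 (chr14:75427931-75428021, plus strand) at base -16.
CHAC1: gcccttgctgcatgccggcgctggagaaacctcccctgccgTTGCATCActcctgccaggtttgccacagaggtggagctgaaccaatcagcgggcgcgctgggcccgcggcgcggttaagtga
SLC1A4: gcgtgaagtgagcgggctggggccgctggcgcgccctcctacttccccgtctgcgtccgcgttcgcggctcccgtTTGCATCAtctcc
CARS1: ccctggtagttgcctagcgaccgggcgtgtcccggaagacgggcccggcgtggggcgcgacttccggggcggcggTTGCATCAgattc
JDP2: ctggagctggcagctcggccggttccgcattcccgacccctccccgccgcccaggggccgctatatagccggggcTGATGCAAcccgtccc

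On day 8, with all arrays in the fit, more of these genes fell than rose with rotenone at both doses and both times. With slides 2 and 3 only this held after 50 nM for 12 h (0 rose and 2 fell), and was not seen after 50 nM for 24 h (1 and 1) or 100 nM (1 and 0). A gene is said here to rise or fall where limma's p, adjusted over all 21239 genes by Benjamini-Hochberg, was under 0.05 with any fold change. On simulated data with 200 of 21196 genes changed, 10.6% of this rule's calls were false, above the nominal share. It found 29.4% of changes of 0.5 (log2) there and so missed most of them. In the data 865 genes rose and 1149 fell with 100 nM, so that these simulated shares do not carry over directly. Calls with an adjusted p near the threshold are weak. After 50 nM for 12 h, 1 of the 39 genes rose and 9 fell, where 2.66% of all genes rose and 2.85% fell. After 50 nM for 24 h, 3 rose and 7 fell, against 3.66% and 4.36% of all genes. After 100 nM for 24 h, 3 rose and 7 fell, against 4.07% and 5.41%. With a fold change over 1.5 in addition, 1 gene rose (CEBPB) and 1 fell (SLC6A9) with 100 nM, where 1.43% and 2.02% of all genes did. The 3 arrays of the 100 nM group lay above all DMSO arrays for 4 of the 39 genes and below them for 16, against 12.6% and 15.8% of all genes. Median log2 fold changes of the 39 genes were -0.24, -0.15 and -0.17 in these 3 comparisons, and those of all genes tested -0.01, -0.02 and -0.02. Without day 8 DMSO replicate 1 the medians were -0.21, -0.14 and -0.04, and with slides 2 and 3 only they were -0.14, -0.07 and -0.05. These comparisons share the DMSO arrays, so that their likeness is not independent evidence.

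**Figure D1:**
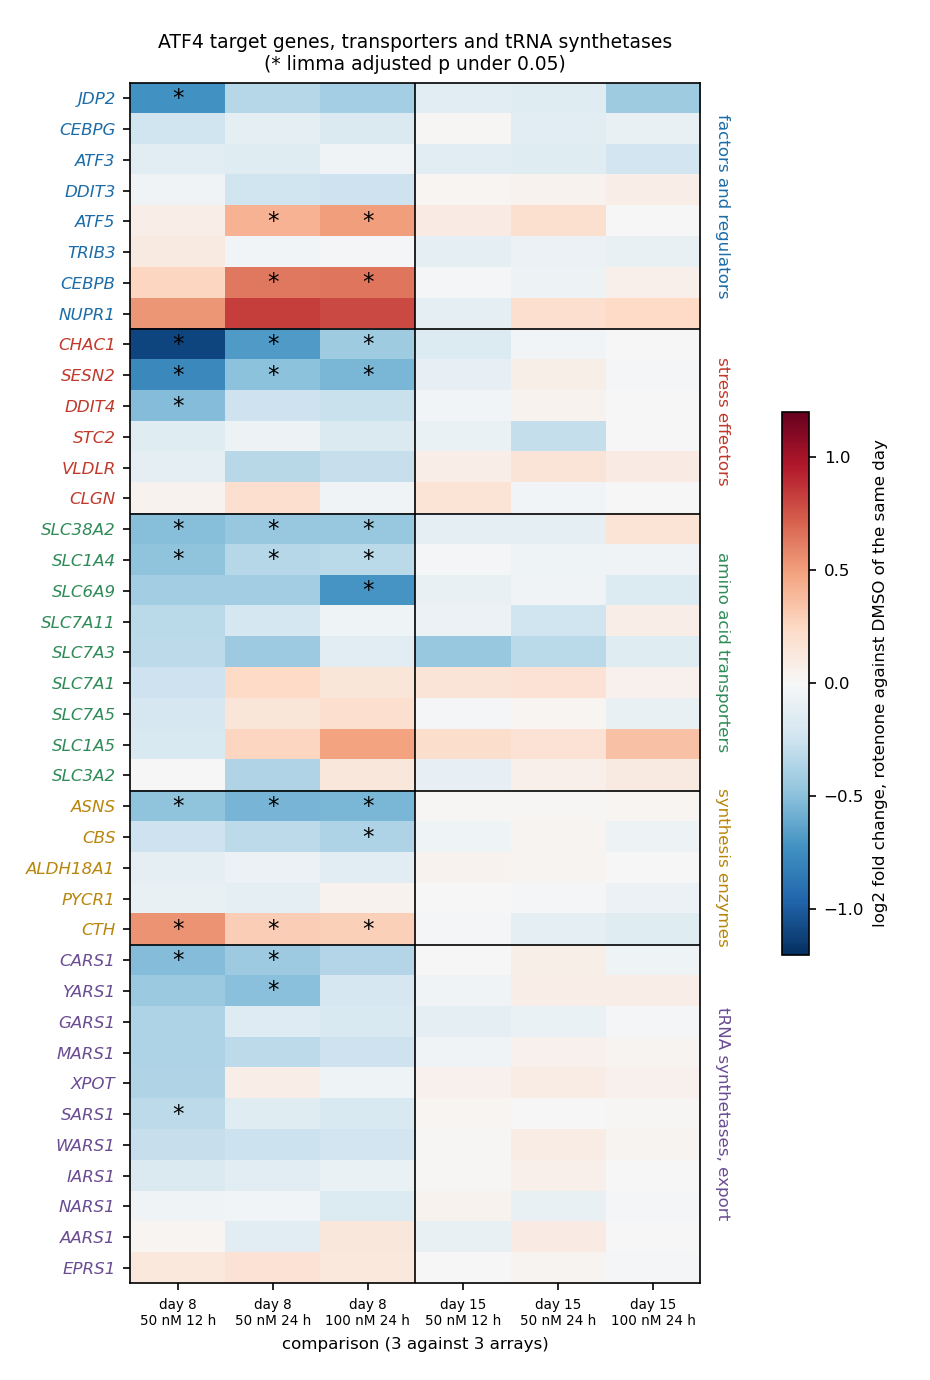
Log2 fold change of each of the 39 genes (listed down the side by role) against DMSO of the same day, in the 6 comparisons with rotenone named along the bottom, 3 against 3 arrays each. Blue is lower and red higher with rotenone, and an asterisk marks a limma adjusted p under 0.05. The day 8 columns hold 10 asterisks each and the day 15 columns hold 0.

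The counts depended on which arrays entered. Within single slides, before batch correction, the median of the 39 genes with 100 nM was -0.26 on slide 1, 0.01 on slide 2 and -0.14 on slide 3. With 50 nM for 24 h it was -0.28, 0.01 and -0.14, and with 50 nM for 12 h it was -0.25, -0.15 and -0.21. The 10 calls with 100 nM became 5 without day 8 DMSO replicate 1 or 100 nM replicate 1, and 6 without DMSO replicate 2, DMSO replicate 3 or 100 nM replicate 3. The 10 calls with 50 nM for 24 h became 4 without DMSO replicate 1 or replicate 1 of that group, and 6 without replicate 3 of either. When only the compared groups were fitted, the calls were ASNS, CEBPB and SLC6A9 with 100 nM, ASNS, CEBPB and CHAC1 with 50 nM for 24 h, and CHAC1 with 50 nM for 12 h. Markers of the cells themselves also moved: with 100 nM the neuronal genes MAP2 (-0.57, limma adjusted p 0.00281) and SNAP25 (-0.30, adjusted p 0.0407) fell, 2 of 12 neuronal markers. The summed neuronal marker signal was 17.09 to 17.32 in DMSO and 16.95 to 17.09 with 100 nM (log2), and that of 7 markers of dividing precursors was 11.28 to 11.48 and 11.58 to 11.70, with SOX2 well above background on 0 arrays. Of the astrocyte, oligodendrocyte and microglia markers, limma called 0 with 100 nM on day 8, and 1 was lower at an unadjusted p under 0.05. The summed signals add unlogged values and rest most on the brightest markers, so that they do not measure the share of a cell type. The part of these shifts in the results was not tested. In bulk RNA, fewer cells of a type and less RNA per cell cannot be told apart.

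Of the 6 stress effectors, the 5 above background were all lower in sign with 100 nM, CLGN by only 0.04 on the log2 scale, and CHAC1 had the largest decrease of the 39 genes after 12 h. When the scanner software's processed signal was used instead, with arrays set to their 75th percentile, CLGN was at 0.01 with 100 nM and the other 4 remained lower. CHAC1 encodes an enzyme that degrades glutathione and is a usual readout of ATF4. On day 8 its normalized log2 signal on the arrays of replicates 1, 2 and 3 was 8.78, 8.83 and 8.91 in DMSO and 7.68, 7.74 and 7.80 after 50 nM for 12 h. It was 8.20, 8.24 and 8.06 after 50 nM for 24 h and 8.41, 8.58 and 8.26 with 100 nM. Every rotenone array was below every DMSO array, and the 12 h arrays were below all arrays of the 24 h groups. The log2 fold change was -1.10 after 12 h (SE 0.11, limma adjusted p 1.13e-05), a 2.15-fold decrease. It was -0.68 after 50 nM for 24 h (adjusted p 0.000753) and -0.43 with 100 nM (SE 0.11, adjusted p 0.0194). The 12 h change was the same size on each slide, -1.10, -1.09 and -1.12 on slides 1 to 3 before batch correction, and both CHAC1 probes fell, by 1.05 and 1.15. The calls with 50 nM held in all 17 alternative analyses at each time. That with 100 nM was lost without day 8 DMSO replicate 2 or 3 or 100 nM replicate 1 or 3 (adjusted p 0.0520 to 0.107).

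SESN2, a leucine-binding stress protein that restrains the growth kinase mTORC1, was at 7.87, 8.02 and 8.0 in day 8 DMSO. Its signals were 7.31, 7.01 and 7.25 after 50 nM for 12 h, 7.33, 7.58 and 7.50 after 50 nM for 24 h and 7.36, 7.60 and 7.29 with 100 nM, all of them below the DMSO arrays. The log2 fold changes were -0.77 (limma adjusted p 0.000134), -0.49 (adjusted p 0.00376) and -0.55 (SE 0.10, adjusted p 0.00133). DDIT4, also known as REDD1 and likewise a brake on mTORC1, was at 9.92, 9.73 and 9.79 in DMSO and at 9.21, 9.36 and 9.30 after 50 nM for 12 h. It fell only in that comparison among the 3 of day 8, by 0.52 on the log2 scale (adjusted p 0.000848), while the difference between the 24 h and 12 h arrays, 0.27, had an adjusted p of 0.181. Calls of SESN2 and DDIT4 did not depend on any 1 array, but all ended when only the compared groups were fitted (adjusted p 0.0553 to 0.0913), and with slides 2 and 3 only the SESN2 call after 12 h alone remained. VLDLR, a lipoprotein receptor, the chaperone CLGN and the secreted glycoprotein STC2 were called in none of the 3 comparisons. STC2 was not well above background on any day 8 array, so that no fold change is given for it.

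**Figure D2:**
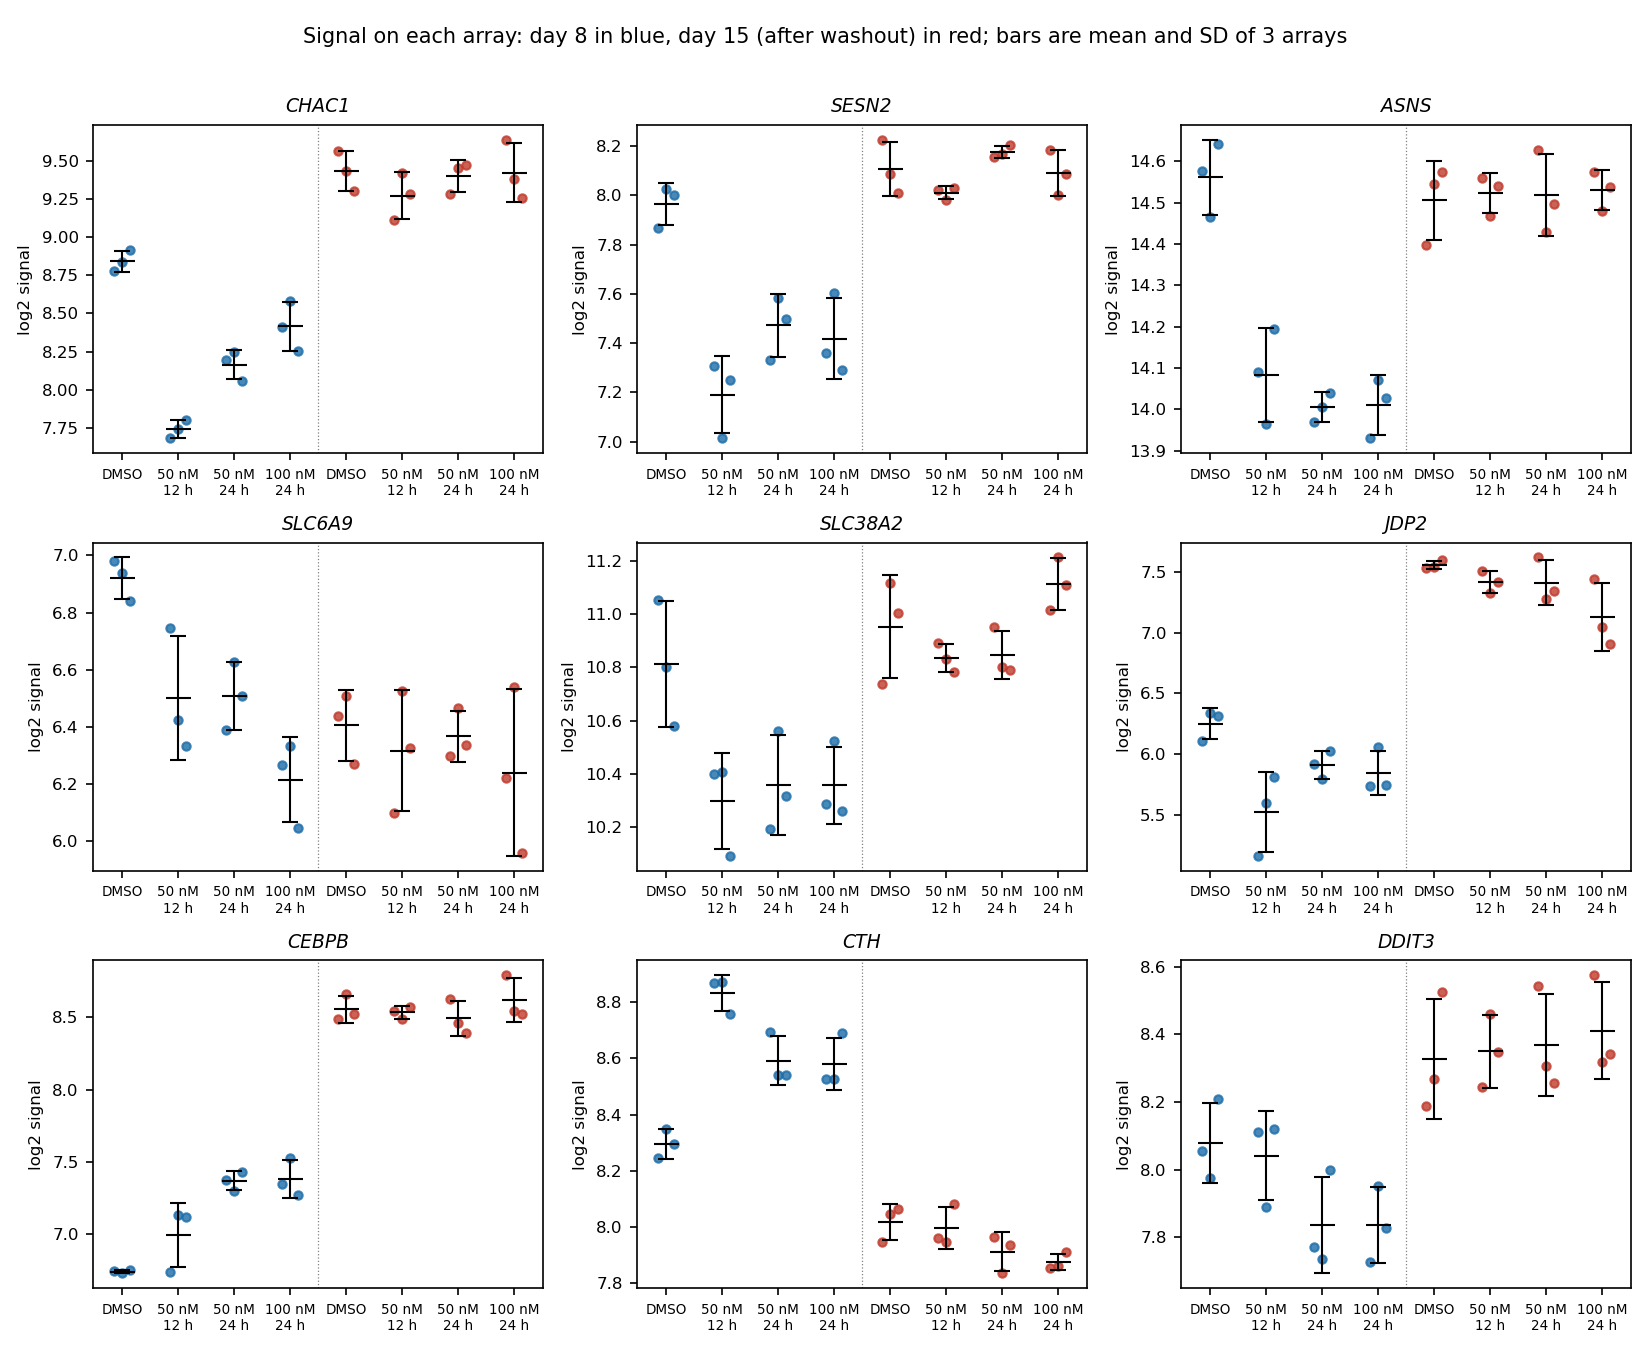
Normalized log2 signal (vertical axes) of 9 of the genes on each of the 24 arrays, by group along the bottom, with day 8 in blue, day 15 after wash-out in red, and bars for the mean and SD of 3 arrays. In CHAC1, SESN2 and ASNS all 9 day 8 rotenone arrays lie below the 3 DMSO arrays of that day, and the day 15 groups overlap.

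Among the enzymes of amino acid synthesis, ASNS and CTH changed in opposite directions in all 3 day 8 comparisons. ASNS makes asparagine from aspartate and is a classic ATF4 target, with the looser element at base -68 of its promoter. Its signal was 14.58, 14.46 and 14.64 in day 8 DMSO, 14.09, 13.97 and 14.19 after 50 nM for 12 h, 13.97, 14.01 and 14.04 after 50 nM for 24 h and 13.93, 14.07 and 14.03 with 100 nM. The 9 rotenone arrays were all below the 3 DMSO arrays. ASNS fell by 0.48 (limma adjusted p 0.00141), 0.56 (adjusted p 0.000248) and 0.55 (SE 0.08, adjusted p 0.000194) on the log2 scale, the last a 1.47-fold decrease. With 100 nM the slides gave -0.64, -0.38 and -0.62. No single array decided a call of ASNS, but each ended where arrays were scaled to their 75th percentile (0.0826 with 100 nM, 0.224 and 0.157 with 50 nM for 24 h and 12 h).

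CTH, cystathionine gamma-lyase, releases cysteine from cystathionine at the end of transsulfuration. It was at 8.24, 8.35 and 8.29 in DMSO and rose to 8.87, 8.87 and 8.76 after 50 nM for 12 h, 8.69, 8.54 and 8.54 after 50 nM for 24 h and 8.53, 8.53 and 8.69 with 100 nM. The ranges of rotenone and DMSO did not overlap at any dose or time. The increase was 0.54 (SE 0.07, limma adjusted p 0.000290) after 12 h, 0.30 (adjusted p 0.0177) after 50 nM for 24 h and 0.29 (SE 0.07, adjusted p 0.0197) with 100 nM. The 100 nM call was lost without day 8 DMSO replicate 1 or 3 or 100 nM replicate 3 (adjusted p 0.0584 to 0.110), and the call of 50 nM for 24 h without day 8 DMSO replicate 1 or 3 or 50 nM 24 h replicate 1 (adjusted p 0.0569 to 0.101).

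CBS, cystathionine beta-synthase, forms the cystathionine that CTH cleaves. The GRCh38 reference assembly lists a near-identical copy of CBS. Whether that copy is a separate gene, and whether the probe reads it, were not checked, so that the values of CBS are uncertain. On day 8 CBS was at 13.38, 13.49 and 13.48 in DMSO and at 12.99, 13.05 and 13.20 with 100 nM, without overlap. It fell by 0.37 on the log2 scale with 100 nM (SE 0.10, limma adjusted p 0.0301), while 50 nM gave -0.31 for the longer (adjusted p 0.0795) and -0.25 for the shorter exposure (adjusted p 0.204). The call was lost without day 8 DMSO replicate 1, 2 or 3 or 100 nM replicate 1 or 2 (adjusted p 0.0513 to 0.129). The proline enzymes ALDH18A1 and PYCR1 were not called, with log2 fold changes between -0.12 and 0.04 in the 3 comparisons.

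Of the 9 amino acid transporters, 3 fell with 100 nM and 0 rose. After 50 nM for 12 h all 9 were lower in sign with 2 called, but SLC7A3 was near background and SLC3A2 had a mean of 9.83 in both groups. That sign count was 8 of 9 with arrays scaled to the 75th percentile, with the processed signal, with a normexp offset of 50 and with the deposited values, and the median with 100 nM, -0.05, was 0.13 with the processed signal. SLC6A9, the glycine transporter GLYT1, was at 6.98, 6.94 and 6.84 in day 8 DMSO and at 6.27, 6.33 and 6.05 with 100 nM. Every 100 nM array was below every DMSO array by more than the spread of either group. It fell by 0.71 (SE 0.14, limma adjusted p 0.00325), a 1.63-fold decrease, with -0.72, -0.60 and -0.80 on the 3 slides. Its 2 probes gave -0.67 and -0.74. With 50 nM for 24 h the value was -0.41 (adjusted p 0.0897), with 50 nM for 12 h it was -0.42 (adjusted p 0.104, or 0.0496 and so called with the slide as a replicate block), and between 100 nM and 50 nM the difference was -0.29 (95% interval -0.59 to 0.01, adjusted p 1.0).

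SLC38A2, the neutral amino acid carrier SNAT2 that cells raise when amino acids are short, was at 11.05, 10.80 and 10.58 in DMSO. It was at 10.40, 10.41 and 10.09 after 50 nM for 12 h, at 10.19, 10.56 and 10.32 after 50 nM for 24 h and at 10.29, 10.52 and 10.26 with 100 nM. The groups did not overlap, but DMSO replicate 3 lay close to the highest rotenone arrays. The fall was called each time, with -0.51 (limma adjusted p 0.0269), -0.45 (adjusted p 0.0404) and -0.46 (SE 0.13, adjusted p 0.0348). Slide 1 carried most of the 100 nM value, with -0.75, -0.27 and -0.31 on slides 1, 2 and 3. These calls were lost in turn without day 8 DMSO replicate 1 or 2 or 100 nM replicate 1 or 3 (adjusted p 0.0836 to 0.191), without day 8 DMSO replicate 1 or 2 or 50 nM 24 h replicate 1 or 3 (adjusted p 0.0947 to 0.210), and without day 8 DMSO replicate 1 or 2 or 50 nM 12 h replicate 3 (adjusted p 0.0741 to 0.153).

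SLC1A4, the carrier ASCT1 of alanine, serine and cysteine, whose promoter holds the exact element shown above, was at 7.49, 7.29 and 7.53 in DMSO. It was at 6.88, 6.90 and 7.08 after 50 nM for 12 h, 7.03, 7.06 and 7.19 after 50 nM for 24 h and 7.09, 7.18 and 7.08 with 100 nM. All rotenone arrays were below all DMSO arrays. The log2 fold changes were -0.48 (limma adjusted p 0.00665), -0.34 (adjusted p 0.0409) and -0.32 (SE 0.10, adjusted p 0.0476). With the slide as a replicate block in place of ComBat, the adjusted p of the last was 0.0706 and that of 50 nM for 24 h 0.0633. The 12 h call held without any 1 array, while that with 100 nM was lost without day 8 DMSO replicate 1 or 3 or 100 nM replicate 1, 2 or 3 (adjusted p 0.0680 to 0.173) and that with 50 nM for 24 h without day 8 DMSO replicate 1 or 3 or 50 nM 24 h replicate 1 or 2 (adjusted p 0.117 to 0.155).

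SLC7A11, the cystine and glutamate antiporter subunit xCT and a usual ATF4 readout, was not called on day 8. Its signal was 5.92, 5.84 and 5.86 in DMSO, 5.25, 5.72 and 5.67 after 50 nM for 12 h, 5.73, 5.74 and 5.51 after 50 nM for 24 h and 5.74, 6.0 and 5.72 with 100 nM. The 100 nM arrays overlapped with DMSO. The log2 fold change with 100 nM was -0.05 (95% interval -0.40 to 0.30, limma adjusted p 0.929) and with 50 nM for 12 h it was -0.32 (adjusted p 0.352). Its partner chain SLC3A2, the large neutral amino acid transporter SLC7A5, the cationic carrier SLC7A1 and the glutamine carrier SLC1A5 were not called in any of the 3 comparisons, SLC1A5 at 0.48 with 100 nM (adjusted p 0.162). SLC7A3, another cationic carrier, was well above background on 1 day 8 DMSO array and on 0 of the rotenone arrays, and its signals overlapped (4.17 to 4.93 in DMSO and 4.33 to 4.71 with 100 nM, adjusted p 0.887).

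Among the transcription factors and regulators, CEBPB and ATF5 rose after 24 h at both doses, and JDP2 fell after 12 h. CEBPB encodes C/EBP beta, a dimer partner of ATF4. It was at 6.74, 6.73 and 6.75 in day 8 DMSO, 6.74, 7.13 and 7.12 after 50 nM for 12 h, 7.38, 7.30 and 7.43 after 50 nM for 24 h and 7.35, 7.53 and 7.27 with 100 nM. The arrays of both 24 h groups lay above DMSO, while 1 of the 12 h arrays was within the DMSO range. The log2 fold change was 0.64 with 100 nM (SE 0.11, limma adjusted p 0.000665), 0.63 with 50 nM for 24 h (adjusted p 0.000948) and 0.25 with 50 nM for 12 h (adjusted p 0.215). It was 0.60, 0.81 and 0.51 on slides 1 to 3 with 100 nM, and the calls of both 24 h groups held in all 17 alternatives. ATF5, a factor tied to the mitochondrial unfolded protein response and itself an ATF4 target, was at 8.63, 8.68 and 8.97 in DMSO, 8.58, 8.78 and 9.15 after 50 nM for 12 h, 9.22, 9.04 and 9.29 after 50 nM for 24 h and 9.35, 9.23 and 9.21 with 100 nM. Both 24 h groups were above DMSO without overlap. It rose by 0.50 with 100 nM (SE 0.13, adjusted p 0.0159) and by 0.42 with 50 nM for 24 h (adjusted p 0.0486). These calls were lost without day 8 DMSO replicate 1 or 2 or 100 nM replicate 1 (adjusted p 0.0663 to 0.0827), and without day 8 DMSO replicate 1 or 2 or 50 nM 24 h replicate 1 or 3 (adjusted p 0.145 to 0.192).

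JDP2, a repressor of the AP-1 family whose promoter holds the exact element, was at 6.11, 6.34 and 6.31 in DMSO and at 5.16, 5.60 and 5.81 after 50 nM for 12 h. All 3 of the 12 h arrays were below DMSO, and they differed more among themselves than the DMSO arrays did. It fell by 0.73 (SE 0.15, limma adjusted p 0.00783), and the 24 h values were -0.34 (adjusted p 0.229) and -0.40 (adjusted p 0.121). NUPR1, a small stress-induced chromatin protein, was well above background on 1 of 3 DMSO arrays and on 3, 3 and 2 of the rotenone arrays in the order above. Its signals were 4.30, 4.19 and 3.63 in DMSO and 4.70, 5.79 and 3.99 with 100 nM, which overlap, and the change of 0.79 (SE 0.37, adjusted p 0.226) was not called.

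DDIT3, the factor CHOP, and TRIB3, a pseudokinase that feeds back on ATF4, were not called with rotenone on either day. DDIT3 was at 8.06, 7.97 and 8.21 in day 8 DMSO, 8.11, 7.89 and 8.12 after 50 nM for 12 h, 7.77, 7.74 and 8.0 after 50 nM for 24 h and 7.73, 7.95 and 7.83 with 100 nM. The 100 nM arrays were all below DMSO, by a log2 fold change of -0.24 (95% interval -0.49 to 0.00, limma adjusted p 0.247). TRIB3 was at 10.72, 10.40 and 10.87 in DMSO, 10.85, 10.53 and 10.95 after 50 nM for 12 h, 10.46, 10.50 and 10.92 after 50 nM for 24 h and 10.48, 10.62 and 10.86 with 100 nM. The groups overlapped throughout, and the log2 fold change with 100 nM was -0.01 (95% interval -0.39 to 0.37, adjusted p 0.983). ATF3 and CEBPG had values of -0.04 and -0.17 with 100 nM and were not called. The 4 ATF3 probes, of which 3 share 1 RefSeq accession, gave 0.18, -0.39, 0.05 and -0.01.

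Of the 10 tRNA synthetases and the tRNA exporter XPOT, 9 of 11 were lower in sign in each day 8 comparison, but few were called: 2 fell after 50 nM for 12 h, 2 after 50 nM for 24 h and 0 with 100 nM, where limma gave 3 lower and 0 higher at an unadjusted p under 0.05 (11.9% and 8.73% of all genes). Medians were -0.31, -0.15 and -0.18 on the log2 scale, each of them the value of SARS1. The 3 comparisons share the DMSO arrays, and the signs differed between slides. With 100 nM on slide 2, before batch correction, AARS1, EPRS1, GARS1, IARS1, NARS1 and XPOT were between 0.00 and 0.32. CARS1, MARS1, SARS1, WARS1 and YARS1 were between -0.37 and -0.02 there. The 2 probes of SARS1 disagreed in sign after 12 h, as given below, and by its probe of the coding transcript SARS1 was not lower then. CARS1, which charges the tRNA of cysteine, fell at both times with 50 nM. It was at 8.56, 8.79 and 8.72 in DMSO, 8.02, 8.25 and 8.23 after 12 h and 8.03, 8.53 and 8.22 after 24 h, without overlap with DMSO. The changes were -0.52 (SE 0.13, limma adjusted p 0.0231) and -0.43 (adjusted p 0.0494), and with 100 nM the value was -0.35 (adjusted p 0.109). The 12 h call was lost without day 8 DMSO replicate 2 or 3 or 50 nM 12 h replicate 1 (adjusted p 0.0767 to 0.103), the 24 h call without day 8 DMSO replicate 1, 2 or 3 or 50 nM 24 h replicate 1 or 3 (adjusted p 0.0596 to 0.248).

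YARS1, the tyrosine enzyme, was at 10.12, 9.78 and 9.86 in DMSO and at 9.12, 9.74 and 9.39 after 50 nM for 24 h. Its fall of 0.50 (SE 0.14, limma adjusted p 0.0340) came to -1.03, -0.02 and -0.47 on slides 1, 2 and 3, and with the slide as a replicate block the adjusted p was 0.0550. It was lost without day 8 DMSO replicate 1 or 3 or 50 nM 24 h replicate 1 or 3 (adjusted p 0.0685 to 0.202). SARS1, the serine enzyme, was called after 50 nM for 12 h at -0.31 (adjusted p 0.0414), but its 2 probes disagreed, with 0.15 for the probe of the coding transcript and -0.77 for a probe of a non-coding transcript. That call was lost without day 8 DMSO replicate 1 or 3 or 50 nM 12 h replicate 1 or 2 (adjusted p 0.0814 to 0.183). The glycine and methionine enzymes GARS1 and MARS1 were both at -0.37 after 12 h (adjusted p 0.0701 and 0.0748), and EPRS1, which charges glutamate and proline tRNAs, had the highest 12 h value, 0.13. The asparagine enzyme NARS1, the alanine enzyme AARS1, the isoleucine enzyme IARS1, the tryptophan enzyme WARS1 and XPOT lay between -0.36 and 0.03 after 12 h and were not called in any of the 3 comparisons.

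Genes with the exact promoter element were counted apart, as a description. After 50 nM for 12 h, 4 of these 10 genes fell and 0 rose, with 9 lower in sign and a median of -0.31. Of the 24 genes with a RefSeq window but no exact element, 5 fell and 1 rose, with 18 lower in sign and a median of -0.17. With 100 nM the numbers were 2 fallen and 0 risen of the 10 (median -0.21), and 5 and 3 of the 24 (median -0.15). Of all genes tested, 2.85% fell and 2.66% rose after 50 nM for 12 h, and 5.41% fell and 4.07% rose with 100 nM. Genes outside the list that carry the element were not counted, and the difference between the 10 and the 24 was not tested.

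The dose and the time were compared directly on day 8. Between 100 nM and 50 nM, both for 24 h, limma called 0 of the 39 genes and 0 genes of all (0% in each direction). At an unadjusted p under 0.05 there were 3 higher and 0 lower listed genes, SLC3A2 (0.49), CHAC1 (0.25, 95% interval 0.02 to 0.48) and YARS1 (0.30), each with an adjusted p of 1.0, where 2.23% and 1.94% of all genes passed. Of the other roles, the smallest p was that of PYCR1 (0.15) and ATF3 (0.10). Between 24 h and 12 h of 50 nM, 0 of the 39 genes were called, where 0.268% of all genes were higher and 0.268% lower. At an unadjusted p under 0.05, 8 listed genes were higher after 24 h and 1 was lower, against 4.81% and 6.08% of all genes. The smallest p by role were those of SLC7A1 (0.48, adjusted p 0.0667), CHAC1 (0.42, adjusted p 0.102), CEBPB (0.38, adjusted p 0.141), CTH (-0.24, adjusted p 0.188) and SARS1 (0.17, adjusted p 0.520). In sign 27 of the 39 genes were higher after 24 h than after 12 h. SLC7A1 was called without 50 nM 12 h replicate 3 (adjusted p 0.0381).

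Other lists of the pathway were counted on day 8, and the shares of all genes given above hold for them too (with 100 nM 4.07% rose and 5.41% fell). In the relay from mitochondria to eIF2 and its outputs, 2 of 17 genes rose with 100 nM and 0 fell. These were OMA1, the inner-membrane protease (0.43, limma adjusted p 0.0134), and GDF15, a secreted stress hormone (0.93, adjusted p 0.0321). GDF15 ranged from 8.54 to 8.65 in DMSO and from 9.32 to 9.91 with 100 nM, without overlap, and rose by 1.06 after 50 nM for 24 h (adjusted p 0.0181). Of 12 genes of serine synthesis and one-carbon metabolism, which are also ATF4 targets in part, 1 rose and 2 fell with 100 nM, and 1 rose and 6 fell after 50 nM for 12 h, with medians of -0.26 and -0.39. PHGDH, the first enzyme of serine synthesis, fell by 1.03 with 100 nM (adjusted p 1.49e-05) and by 0.91 after 12 h (adjusted p 0.000126). MTHFD1L, a mitochondrial folate enzyme, fell by 0.42 with 100 nM (adjusted p 0.00358), while its cytosolic relative MTHFD1 rose by 0.73 (adjusted p 0.000132).

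Of the 9 cytosolic synthetases outside the list, 3 were lower in sign after 50 nM for 12 h (median 0.12), 5 after 50 nM for 24 h (median -0.03) and 3 with 100 nM (median 0.04), and the difference from the listed synthetases was not tested. After 12 h limma called 0 (2 higher and 1 lower at an unadjusted p under 0.05, against 7.76% and 8.99% of all genes), and with 100 nM 1 fell, RARS1 (-0.28, limma adjusted p 0.0226). Among 17 mitochondrial synthetases 1 fell with 100 nM, WARS2 (-0.42, adjusted p 0.0402), with a median of -0.01, and such a share is near that of all genes. Of 20 other amino acid transporters 1 fell with 100 nM, SLC38A1 (-0.31, adjusted p 0.0214), and 1 rose after 50 nM for 12 h, SLC43A1 (0.42, adjusted p 0.0427). In the endoplasmic reticulum arm, 4 of 20 chaperones and folding factors driven by ATF6 and XBP1 fell with 100 nM and 0 rose. They were DNAJB9 (-0.49, adjusted p 0.000762), the chaperone HSPA5 (-0.46, adjusted p 0.0114), HERPUD1 (-0.46, adjusted p 0.0186) and SEL1L (-0.63, adjusted p 0.0196). After 50 nM for 12 h, limma called 0 of the 20 (4 higher and 1 lower at an unadjusted p under 0.05) and their median was 0.12.

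**Figure D3:**
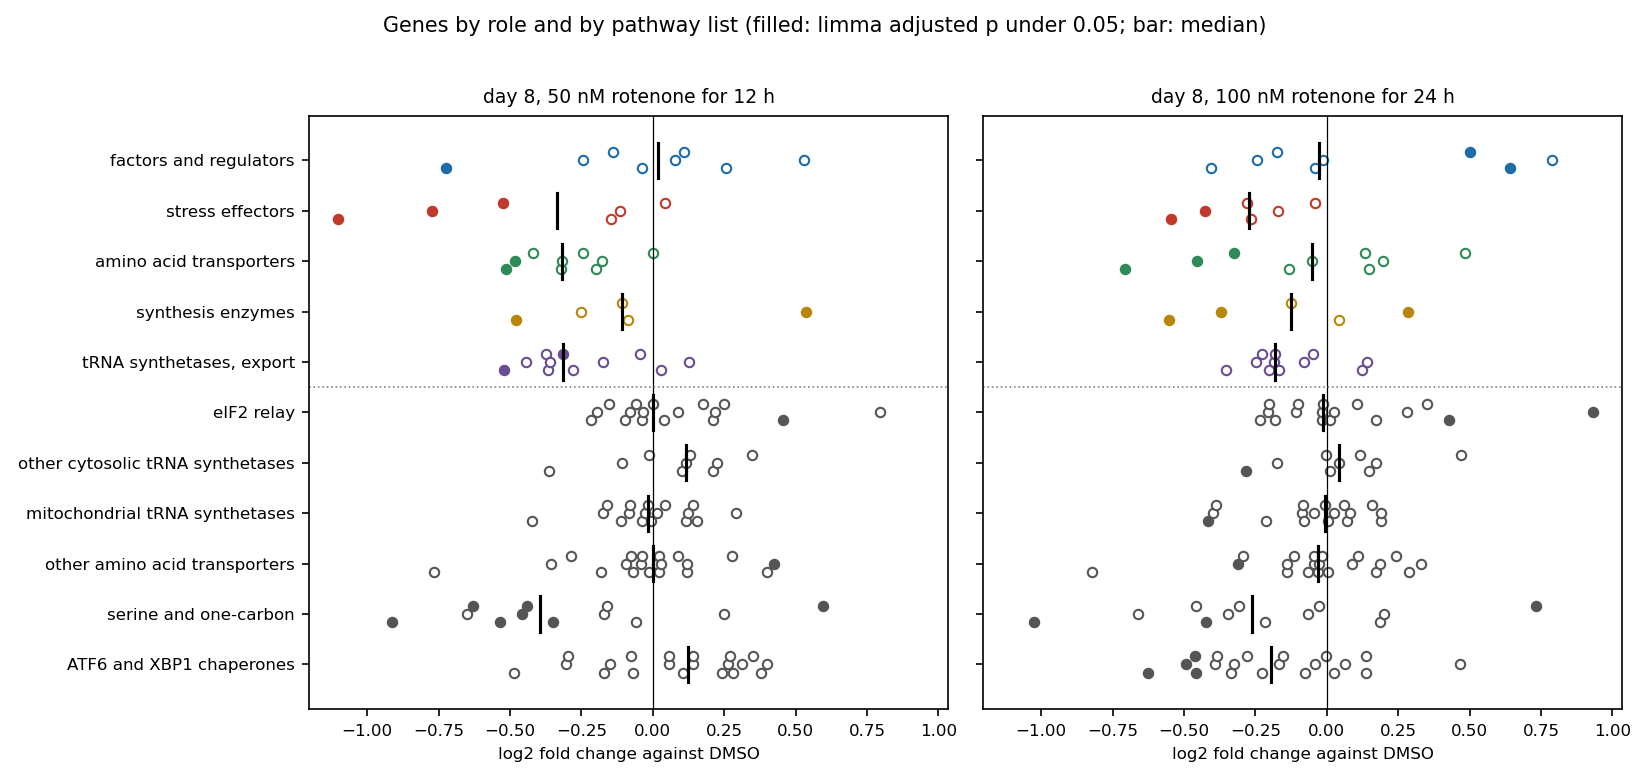
Log2 fold change against DMSO on day 8 (horizontal axes) of each gene by role (colored, upper rows) and by pathway list (gray, lower rows), after 50 nM for 12 h on the left and 100 nM for 24 h on the right. Filled points have a limma adjusted p under 0.05 and bars are medians. The medians of listed synthetases and of the other cytosolic synthetases after 12 h were -0.31 and 0.12.

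After the recovery period, on day 15, limma called 0 of the 39 genes in each of the 3 comparisons with DMSO, as it called 0% of all genes in either direction. At an unadjusted p under 0.05, 0 listed genes were higher and 1 was lower after 100 nM, against 2.26% and 4.95% of all genes. With 50 nM, 0 listed genes passed at either time, against 1.73% higher and 1.55% lower genes of all after 24 h and 1.53% and 1.94% after 12 h. The median of the 39 genes was 0.00 after 100 nM, 0.03 after 50 nM for 24 h and -0.02 after 50 nM for 12 h, and without day 15 DMSO replicate 1 it was -0.01, 0.01 and -0.04. The 1 gene was JDP2, at 7.53, 7.54 and 7.59 in DMSO and 7.44, 7.05 and 6.90 after 100 nM, a value of -0.42 (SE 0.15, adjusted p 0.631). Its rotenone arrays were below DMSO, and replicate 3, the array with the largest residual spread, was the lowest. In the other roles the smallest p after 100 nM belonged to CTH (-0.14), SLC1A5 (0.35), VLDLR (0.09) and YARS1 (0.08), with adjusted p between 0.712 and 0.924.

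The 10 genes called with 100 nM on day 8 had day 15 values between -0.16 (SLC6A9) and 0.16 (SLC38A2). CHAC1 was at 9.56, 9.43 and 9.30 in day 15 DMSO and at 9.64, 9.38 and 9.25 after 100 nM, a value of -0.01 (95% interval -0.24 to 0.23). ASNS was at 14.40, 14.54 and 14.57 and 14.57, 14.48 and 14.54, a value of 0.03 (95% interval -0.14 to 0.19). These groups overlapped. SESN2 was at 8.23, 8.08 and 8.01 and 8.19, 8.0 and 8.09, with -0.02, and CEBPB at 8.49, 8.66 and 8.52 and 8.79, 8.55 and 8.52, with 0.06 (95% interval -0.16 to 0.29). SLC6A9 was at 6.44, 6.51 and 6.27 in DMSO and 6.22, 6.54 and 5.96 after 100 nM, again with overlap. After 50 nM the smallest p by role were those of CEBPG (-0.13), SLC7A1 (0.17), CTH (-0.11), NARS1 (-0.09) and VLDLR (0.15) for the 24 h exposure, all with adjusted p of 1.0. For the 12 h exposure they were those of CHAC1 (-0.16), ATF3 (-0.12), GARS1 (-0.12), CBS (-0.05) and SLC7A3, which was well above background on 2 DMSO arrays and 0 rotenone arrays, so that its value is a bound (adjusted p 1.0). GDF15 ranged from 7.93 to 8.31 in day 15 DMSO and from 8.40 to 9.38 after 100 nM, a value of 0.88 (SE 0.27, adjusted p 0.531). Without day 15 DMSO replicate 1 the counts also were 0, and the genes called on day 8 had values between -0.18 (CTH) and 0.06 (CHAC1) after 100 nM.

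**Figure D4:**
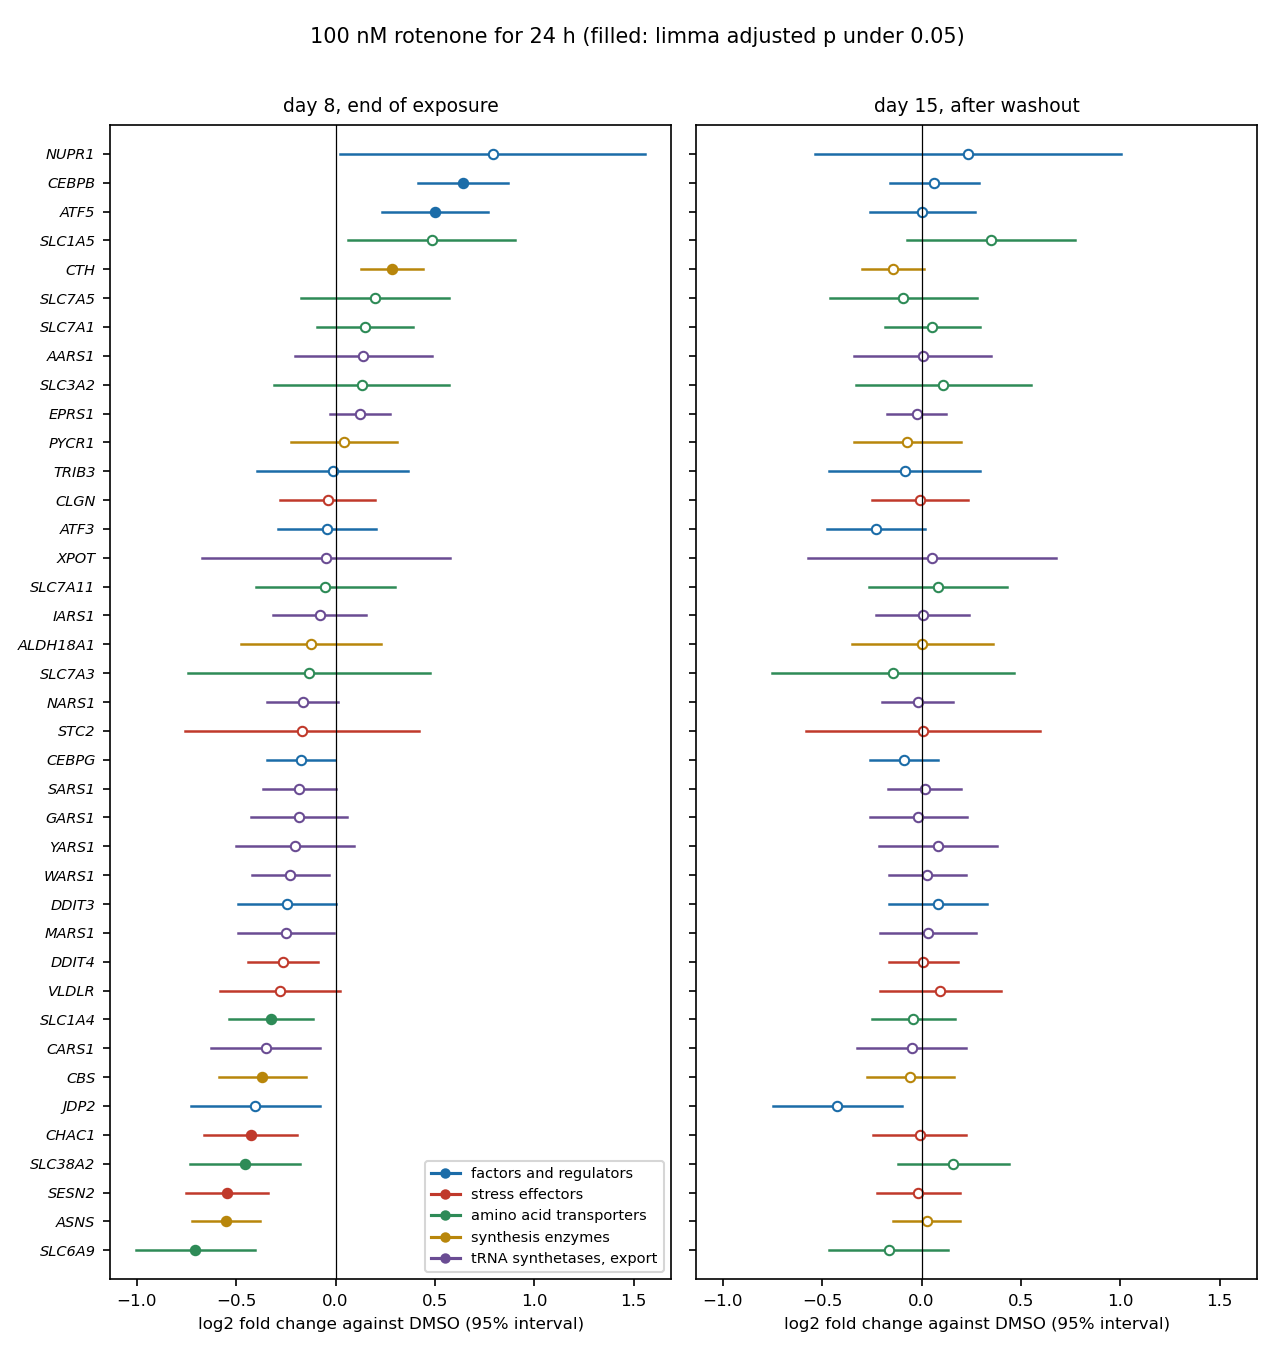
Log2 fold change of the 39 genes against DMSO with 95% intervals (horizontal axes) for 100 nM rotenone for 24 h, at the end of exposure on day 8 (left) and after wash-out on day 15 (right), in the order of the day 8 values and colored by role. Filled points have a limma adjusted p under 0.05, 10 on the left and 0 on the right.

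Whether the 100 nM effect differed between the days was tested as an interaction. The difference was called for 1 higher and 1 lower gene of the 39, where 1.15% and 1.29% of all genes were called. For ASNS the day 15 effect exceeded that of day 8 by 0.58 (SE 0.11, limma adjusted p 0.00881), and for CTH it was lower by a difference of -0.43 (SE 0.11, adjusted p 0.0362). CEBPB (-0.58, adjusted p 0.0501), SESN2 (0.53, adjusted p 0.0521), SLC38A2 (0.62, adjusted p 0.0961) and WARS1 (0.26, adjusted p 0.388) had the smallest p in their roles and were not called. The ASNS call held without any 1 array and that of CTH was lost without day 15 DMSO replicate 2 or 3 or day 15 100 nM replicate 1 or 2 or day 8 DMSO replicate 1, 2 or 3 or 100 nM replicate 1 or 3 (adjusted p 0.0519 to 0.103). In the other settings the ASNS call held in 6 of 11. It was lost with both 75th percentile scalings, without batch correction, with the compared groups only and with slides 2 and 3 only (limma adjusted p up to 0.469). Without day 15 DMSO replicate 1, 3 genes were called. The interaction was not tested for 50 nM.

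The aggregates that never saw rotenone also changed in these genes with time. From day 8 to day 15 in DMSO, 9 of the 39 genes rose and 4 fell, where 10.1% of all genes rose and 13.2% fell, and the median was 0.14 against -0.04 for all genes. Without day 15 DMSO replicate 1, 8 rose and 3 fell, and the median was 0.08. CEBPB went from 6.74, 6.73 and 6.75 to 8.49, 8.66 and 8.52, an increase of 1.82 (SE 0.11, limma adjusted p 4.05e-10) and the largest of the list. JDP2 rose from 6.11, 6.34 and 6.31 to 7.53, 7.54 and 7.59, by 1.30 (SE 0.15, adjusted p 4.00e-06). Both groups were apart by more than their spread in each case. Among the transporters SLC7A11 rose from 5.92, 5.84 and 5.86 to 6.66, 6.74 and 7.10, by 0.96 (SE 0.17, adjusted p 0.000279), SLC1A4 by 0.76 (adjusted p 1.38e-05) and SLC7A1 by 0.48 (adjusted p 0.00441), while SLC6A9 fell by 0.52 (adjusted p 0.0126).

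The stress effectors went both ways with time in DMSO. CHAC1 rose by 0.59 (limma adjusted p 0.000663), and DDIT4 and VLDLR fell by 0.41 (adjusted p 0.00117) and 0.47 (adjusted p 0.0227). CTH fell by 0.28 (adjusted p 0.0105), and ASNS had a value of -0.06 (95% interval -0.23 to 0.11). Of the synthetases SARS1, YARS1 and GARS1 rose by 0.40, 0.48 and 0.35. The SARS1 call was lost with its brightest probe, that of the coding transcript (0.19, adjusted p 0.293). GARS1 had an adjusted p of 0.0334, and of 0.0521 with the slide as a replicate block. The calls of CEBPB, JDP2, SLC1A4 and SLC7A11 held in all 17 alternatives, while CTH was lost without day 15 DMSO replicate 1 (adjusted p 0.0526), SLC6A9 without day 15 DMSO replicate 3 (adjusted p 0.0568), VLDLR without day 15 DMSO replicate 2 or 3 or day 8 DMSO replicate 2 (adjusted p 0.0519 to 0.122), YARS1 without day 15 DMSO replicate 1 or 2 or day 8 DMSO replicate 2 or 3 (adjusted p 0.0553 to 0.0831) and GARS1 without day 15 DMSO replicate 1 or 2 or day 8 DMSO replicate 1 or 2 (adjusted p 0.0822 to 0.149). Some single cell markers moved strongly over the same days. TH, the rate-limiting enzyme of dopamine synthesis, changed by -2.94 and the dopamine transporter SLC6A3 by -2.07, the dopaminergic factor NR4A2 rose by 1.57, and 4 of 7 markers of dividing precursors fell (TOP2A, CCNB1, CDK1 and MKI67). The summed signal of the 12 neuronal markers was 17.09 to 17.32 in day 8 DMSO and 17.14 to 17.42 in day 15 DMSO (log2). That of the 7 precursor markers was 11.28 to 11.48 and 11.39 to 11.61. The part of these markers in the values of the listed genes was not tested.

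**Figure D5:**
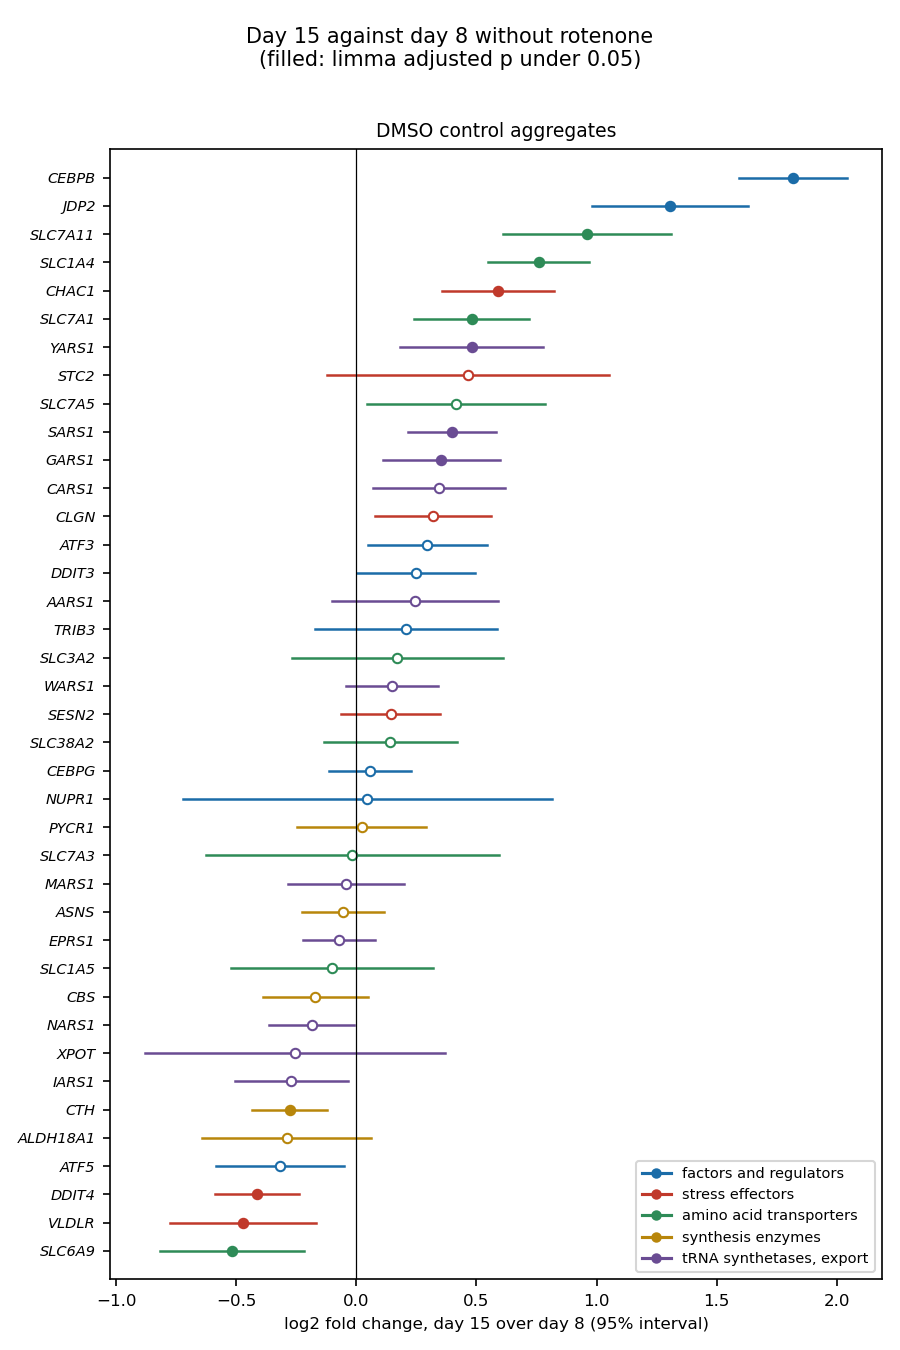
Log2 fold change of the 39 genes between day 15 and day 8 in DMSO, with 95% intervals (horizontal axis), in order of size and colored by role. Filled points have a limma adjusted p under 0.05, 9 above 0 and 4 below, with CEBPB the highest at 1.82 and SLC6A9 the lowest at -0.52.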

How the data were processed

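Total RNA was labeled with Cy3 and hybridized to Agilent SurePrint G3 human arrays. For every array the authors deposited median spot and background intensity for 62976 spots from Agilent Feature Extraction (11.5.1.1 on slides 1 and 3, 12.0.0.7 on slide 2), and a table of their own normalized log2 values, used here as an alternative. That deposited table holds 21733 probes, 19615 of them named here, and 38 of the 39 genes (SARS1 was not analysed with it). Its columns correlated with the gene means computed here at r = 0.989 to 0.992.

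The intensities were corrected with normexp (offset 0), quantile normalized over 24 arrays and, as the methods state, corrected with ComBat for slide 1, with the 8 groups as covariates. Spots were kept where 3 or more arrays exceeded the 95th percentile of 308 negative controls by a factor of 1.1, 6756 values with outlier flags were left out, and spots and then probes were averaged per gene. RefSeq accessions (GRCh38.p14) named 30275 of 50599 probes. All arrays entered 1 limma fit (limma 3.58.1, R 4.3.3; 16 residual degrees of freedom), with Benjamini-Hochberg adjustment over 21239 genes. The number of arrays limits the precision. Samples with the same replicate number shared a slide. Before batch correction their deviations from the group means correlated at r = 0.171 or more in all 84 pairs (median 0.458, against -0.354 for the 168 other pairs). These correlations were not computed on the corrected values that entered the fit.

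The members and lists were chosen with earlier results of these data known. Values of every array are given for members called with 100 nM on day 8 and for ASNS, CHAC1, TRIB3, DDIT3 and SLC7A11, as the usual ATF4 readouts. In each other comparison the gene with the smallest p per role is named. From the pathway lists at most 5 called genes are named, with ATF4 and GDF15. Other genes with values were chosen after the values were seen. A total of 17 alternatives were tried per comparison with DMSO: 11 other settings and the omission of each of 6 arrays. The steps were tested on simulated data with 200 changed genes, fewer than were called with 100 nM on day 8, and false calls exceeded the nominal share there. Figures were drawn with matplotlib 3.10.9.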

Additional observations from a re-analysis of the deposited data

Results flagged for a closer look

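For 2 genes the effect of 100 nM rotenone differed between day 8 and day 15 by limma's interaction test. For ASNS the difference, day 15 minus day 8, was 0.58 on the log2 scale (SE 0.11, adjusted p 0.00881), between effects of -0.55 on day 8 and 0.03 on day 15. Its 3 day 8 rotenone arrays were below all DMSO arrays, and on day 15 the groups overlapped. The ASNS call was lost in some other settings, as given above. For CTH the difference was -0.43 (SE 0.11, adjusted p 0.0362), between 0.29 and -0.14, with the rotenone arrays above all DMSO arrays on day 8 and below all of them on day 15.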

How the results depend on the processing

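Counts of called genes among the 39 moved with several settings, in directions that are given here with the cause not tested. When the fit was restricted to the groups being compared, 3 genes were called with 100 nM on day 8 (10 in the report), 3 with 50 nM for 24 h (10), 1 with 50 nM for 12 h (10) and 0 for the interaction of day and 100 nM (2). Without batch correction the counts were 4, 4, 6 and 0, and 8 between the days in DMSO (13). With slides 2 and 3 only, which leaves 2 arrays per group, they were 1, 2, 2, 0 and 6. A normexp offset of 50 gave 16 with 50 nM for 12 h, 2 between 24 h and 12 h (0) and 5 for the interaction. For that time comparison the brightest probe per gene, the deposited values and the filter on signals well above background gave 1 each, and for the interaction they gave 4, 6 and 4.

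Leaving out 1 array gave 5 to 8 genes with 100 nM on day 8, 4 to 10 with 50 nM for 24 h, 8 to 11 with 50 nM for 12 h, 0 to 0 in each day 15 comparison and for the dose, 0 to 1 for the time, 10 to 13 between the days in DMSO and 1 to 3 for the interaction. The interaction count was 1 (ASNS) without day 8 DMSO replicate 1, 2 or 3, day 8 100 nM replicate 1 or 3, day 15 DMSO replicate 2 or 3, or day 15 100 nM replicate 2. With the slide as a replicate block in place of ComBat the counts were 9, 8, 11, 12 and 2, with 0 for the other comparisons. That block changed no other call than those given for SLC1A4, YARS1, SLC6A9 and GARS1.

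With 100 nM on day 8, arrays scaled to their 75th percentile gave 3 higher and 4 lower listed genes in place of 3 and 7. For 50 nM for 24 h that scaling called 997 higher and 761 lower of all genes, and the processed signal 1257 and 871, in place of 777 and 927. The processed signal moved the median of all genes to 0.10 with 100 nM on day 8 and to 0.15 between the days in DMSO, from -0.02 and -0.04. The interaction of ASNS was lost with both 75th percentile scalings (adjusted p 0.459 and 0.378). Only 1 direction among called genes reversed, that of SARS1 after 50 nM for 12 h, which was 0.15 with its brightest probe. Each called gene was also counted in each alternative analysis. The call held in 117 of 170 such combinations of gene and alternative with 100 nM and in 117 of 170 with 50 nM for 24 h. It held in 134 of 169 with 50 nM for 12 h, 186 of 220 between the days in DMSO and 28 of 46 for the interaction. The alternatives share arrays, so that these combinations are not independent. Signal over background limits SLC7A3, STC2 and NUPR1, and the other 36 genes were well above background on all 24 arrays.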
